A study of Mus musculus with 6 samples.

Results

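Type 2 innate lymphoid cells were taken from 6 single-cell libraries of mouse lung by raw counts of unique molecular identifiers (UMIs, each a counted RNA molecule). A barcode, the label of a droplet holding a cell, was kept from 500 genes and 1000 UMIs upward if mitochondrial genes gave no more than 15% of its UMIs. It then had to hold at least 1 UMI of Ptprc (CD45), at least 2 of Gata3, at least 1 each of Il1rl1 and Il7r, and none of Cd3e, Cd3g, Ms4a2, Ncr1 or Cdh5, which mark T cells, mast cells and basophils, natural killer (NK) cells and endothelium. This gate held 76 of the 88616 barcodes that passed the filter, and 32913 of those barcodes held a Ptprc UMI. The mice were 21-month-old males on C57BL/6, 3 libraries from p16-CreERT2/R26-LSL-DTR mice (labelled p16-DTR) and 3 from p16-CreERT2 mice (control). The promoter of p16 drives a tamoxifen-dependent Cre recombinase in both genotypes, and only the first also carries a Cre-activated diphtheria toxin receptor at Rosa26. All mice received tamoxifen for 5 days and, 2 weeks later, diphtheria toxin for 5 days, the step meant to remove cells with high p16, and lungs were taken after 2 more weeks. From each lung 20000 CD45-negative and 9000 CD45-positive sorted cells were mixed, so the share of immune cells does not stand for that in the lung.

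Type 2 innate lymphoid cells are tissue-resident lymphocytes without antigen receptors. They respond to alarmins that epithelium and stroma release, interleukin-33 (IL-33) through ST2 (Il1rl1), IL-25 through Il17rb and thymic stromal lymphopoietin through Crlf2 and Il7r, and their fate depends on Gata3 and Rora. In lung they are known as sources of IL-5, IL-13 and amphiregulin (Areg), which act on eosinophils, mucus-producing epithelium and tissue repair.

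The gated cells numbered 12, 19 and 17 in the p16-DTR-labelled libraries and 10, 10 and 8 in the control libraries. Their summed counts were 183323, 317492 and 251382 UMIs in the former and 83309, 140029 and 166605 in the latter, so each library rested on few cells. The median depth was 15045, 16371 and 14241 UMIs per cell against 7311, 15112 and 14821 (exact permutation test, two-sided, p = 0.5; 3 against 3 libraries cannot go below 0.1). Library totals ranged from 254200305 to 344421685 UMIs over all deposited barcodes. The labels number the libraries of a group without stating that the 3 came from different mice, so the p-values measure the spread between these libraries, which may in part be technical. Pairs of libraries shared 59 to 94 barcode sequences, none of them between gated cells, and 1 gated barcode also occurred in another library. Within a library some gated barcodes resembled each other. In control 1, those of 8331 and 10648 UMIs each held 31 Dach2, 10 Cxcr6 and 9 Ccr8 UMIs. Those of 6291, 4970 and 5819 UMIs in the same library held 15, 14 and 15 of Rora and 6, 7 and 7 of Rnf128. Its barcodes of 3366 and 1864 UMIs held 3 and 5 of Ctnna2 and 10 and 3 of 1700113H08Rik. In control 2, those of 9576, 7184 and 4810 UMIs held 28, 13 and 10 of Ccl1. In p16-DTR 1, those of 6207 and 8589 UMIs held 5 and 7 of Ctnna2. Whether such barcodes came from 1 cell was not tested. These sets are examples. Each barcode is counted as a cell, which bears on counts, shares, intervals, depths and medians per cell, most of all in control 1. Cdkn2a, the gene of p16, was higher in the p16-DTR-labelled libraries, where the toxin step was meant to remove cells with high p16. Over all filtered barcodes it was at 7.10, 8.57 and 7.31 UMIs per 1000000 (CPM), against 1.15, 2.60 and 2.84 CPM in the control libraries. The reason was not tested. The tdTomato entry of the matrices separated the groups as labelled, with 89, 74 and 94 UMIs in the p16-DTR-labelled libraries and 0 in each control library. Each direction given refers to the labels as they stand.

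Of the 5 marker genes that the label rests on, Gata3, Il1rl1 and Il7r were required by the rule and describe only the choice. Areg, which the rule did not use, had a UMI in 55 of the 76 cells, whereas Il13 had one in 4. Barcodes that met every other criterion were spread as follows around the threshold on Gata3: 72 held 3 or more Gata3 UMIs, 4 held 2, 2 held 1 and 164 held none. The median gated cell held 13 Gata3 UMIs, with library medians of 17, 13 and 19 in the p16-DTR-labelled libraries and 4, 11 and 9.5 in the control libraries. Of the 4 cells with 2 UMIs, 3 were in control 1 and 1 in control 3. Of the 164 without Gata3, 154 had at least 2 UMIs summed over the macrophage genes Csf1r, Cd68 and Adgre1, and 70 had a UMI of Rora. The criterion on Cd3g alone removed 20 barcodes, of which 20 held Rora, 18 Dach2, 16 Arg1 and 14 Klrg1, while 1 held Cd3d, 2 Trac, 1 Cd4 and 2 Foxp3. A single Cd3g UMI had excluded 6 of the 20, and the others held more. Results whose direction turned without that criterion, an alternative chosen after seeing the data, are given with both values. Il1rl1 alone removed 7 barcodes, Cd3e 3 and Cdh5 12.

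Most markers of other cells were low, and some cells stood apart. Cd4, Cd8a and Foxp3 had no UMI in the 76 cells, which allows a share of up to 3.95% of cells with a UMI for each, and the same held for Eomes, Ifng, Klrb1c, Gzmb, Il17a, Il17f and Il22. Tbx21, the regulator of type 1 lymphocytes, had a UMI in 1 cell. In library p16-DTR 1 a cell of 34480 UMIs held 287 of Lyz2 and 467 of S100a8, and in control 3 a cell of 69932 UMIs held 320 and 1006. The second supplied 42.0% of all gated UMIs of its library. The summed level of the 12 myeloid markers was accordingly 6944 CPM in p16-DTR 1 and 16008 CPM in control 3, against 50.0 to 132 CPM in the other 4 libraries, and Flt3 and Xcr1 were at 0. Altogether 7 of the 76 cells held at least 2 UMIs of another lineage's panel, 4 of the endothelial, 2 of the epithelial, 2 of the myeloid and 1 of the stromal panel with some cells in more than 1, and without those 7 the myeloid sum was 70.0 to 101 CPM and 38.7 to 132 CPM. The 15 T cell markers, 12 of them detected, summed to 473 to 746 CPM in the p16-DTR-labelled libraries and 557 to 852 CPM in the control libraries, largely Trbc1 and Trbc2. Cd3d had a UMI in 6.58% of gated cells and 2.23% of B cells, and Trac in 5.26% and 2.29%. Cells with Cd3d or Trac numbered 8, with 1, 3 and 1 in the p16-DTR-labelled libraries and 0, 0 and 3 in the control libraries, where control 3 held 8 cells in all. Among them, a control 3 cell of 4528 UMIs held both, 2 of Cd3d and 1 of Trac. It had 2 Gata3 UMIs, 1 of Il7r and none of Id2, Bcl11b or Dach2, but 22 of Il1rl1 and 28 of Rora. The 10 basophil and mast cell markers, 7 of them detected, summed to 338 to 480.03 CPM against 357 to 582 CPM. Among these markers Kit had 297 UMIs in the 76 cells, Hdc 126 and Fcer1a 71. Mcpt8, Cpa3, Gata2 and Cd200r3 had 1 UMI each. As a measure of free RNA, Sftpc, a surfactant gene of alveolar epithelium, had a UMI in 65.8% of gated cells and in 71.2% of B cells, at median depths of 14711 and 13813 UMIs.

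To place the cells among lung lymphocytes, 4 comparator gates were read in the same libraries: 2024 CD4 T cells, 939 NK cells, 322 basophils and 4926 B cells. Genes with at least 50 CPM in every library of gated cells were ranked by the ratio of their mean to the highest comparator mean, as a description with no test, since the cells were chosen on this expression. The means include the 2 cells with myeloid RNA. Of the 25 genes at the top, 2 (Gata3 and Il1rl1) were used by the gate and 23 were not. Calca (chromosome 7, 114631478 to 114636357 in mm10), which encodes calcitonin and the neuropeptide CGRP, stood at 748 ± 116 CPM (SD, n = 6 libraries) and at most at 2.64 CPM in a comparator, the basophils. Arg1 (chromosome 10, 24915221 to 24927484), the arginine-degrading enzyme arginase 1, stood at 308 ± 142 CPM against 2.34 CPM in NK cells. Dach2 (chromosome X, 113297510 to 113836386), a transcriptional cofactor, stood at 1547 ± 621 CPM against 5.49 CPM in CD4 T cells. Ccr8, a chemokine receptor, was at 239 ± 79.9 CPM against 8.95 CPM, and Pparg, a lipid-sensing nuclear receptor, at 741 ± 231 CPM against 33.02 CPM. Csf2 (GM-CSF), Vipr2 (a receptor of vasoactive intestinal peptide), Il2ra and the T cell receptor gamma constant segment Tcrg-C4 were in the same 25. Among the 25 the largest ratios belonged to 1700113H08Rik (348 ± 207 CPM against 0.243 CPM) and Stab2, a scavenger receptor better known from sinusoidal endothelium (356 ± 244 CPM against 0.868 CPM). Genes under 50 CPM in a library were not ranked, among them Ctnna2 with 354 CPM against 0.399 CPM in basophils and none in control 2. Its highest library was p16-DTR 3 (1158 CPM), and a single cell held 189 of its 478 UMIs.

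**Figure D1:**
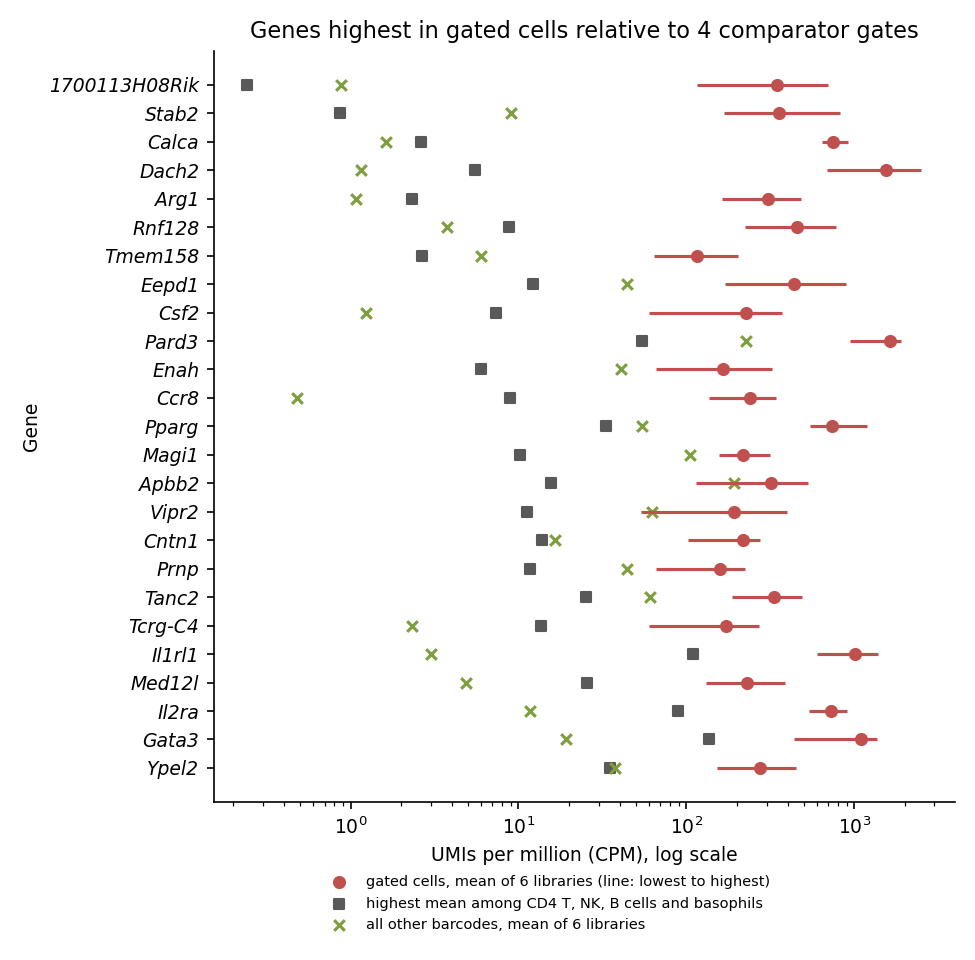
Levels of the 25 genes (rows) with the highest ratio to the comparator gates among genes with at least 50 CPM in every library of gated cells, in UMIs per 1000000 on a log axis. Red points are means of the 6 libraries of gated cells with a line from the lowest to the highest library, squares the highest mean among CD4 T, NK and B cells and basophils, and crosses the mean of all other barcodes; Dach2 lies at 1547 CPM in gated cells and at 5.49 CPM in CD4 T cells.

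The 76 cells held 0.0637% of the UMIs of all filtered barcodes, which come from the sorted mix and not from the lung as a whole. For some genes, among the 25 and on the fixed lists, their share was larger. Of all Dach2 UMIs 44.4% were in gated cells, of Ccl1 34.5%, of Ctnna2 29.3%, of Ccr8 24.7%, of Calca 23.6%, of Il1rl1, which the gate required, 16.7% and of Arg1 15.1%. Csf2 followed with 10.5% and the neutral amino acid transporter Slc7a8 with 8.75%. The gate did not hold all barcodes with such RNA. Of 166 barcodes with 5 or more Dach2 UMIs, 61 were gated and 105 were not, and 70 of the 105 held a Cd3e or Cd3g UMI. Of the same 105, 53 failed the criterion on Gata3 and 58 that on Il1rl1. Whether they were the same kind of cell was not tested.

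Cytokine RNA of the type 2 programme was sparse. The genes lie close together on chromosome 11 of mm10, Il4 at 53602982 to 53618669, Il13 at 53631324 to 53634702 and Il5 at 53720794 to 53725106. Il13 had 20 UMIs in the p16-DTR-labelled libraries and 1 in the control libraries, and 17 of these 21 UMIs came from a single cell of p16-DTR 1. Il5 had a UMI in 9 cells, at most 2 per cell, Il4 in 8, and Il9 had none in any filtered barcode. B cells, which should lack Il5 and Il13, had a UMI of Il5 in 0.0812% and of Il13 in 0.0406% of cells, below the 11.8% and 5.26% of gated cells. Basophils held 57.0% of the Il13 and 67.6% of the Il4 UMIs of the filtered barcodes, against 3.84% and 0.153% in gated cells. No basophil held Il5 (0 of 322, which allows up to 0.932% of cells with a UMI). Gated cells held 3.58% of the Il5 UMIs, and of the 311 Il5-positive barcodes outside the gate 242 had no Ptprc UMI.

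Areg, Calca and Arg1 were effector transcripts with a UMI in at least 52 cells each. Areg was at 1440.1, 561 and 362 CPM in the p16-DTR-labelled libraries and at 492, 764 and 222 CPM in the control libraries. The groups overlapped, and in each library a single barcode gave much of the Areg RNA, 24.2% in p16-DTR 2 and 50.5% to 59.5% in the other 5. In control 1 that barcode held 21 Areg UMIs, and the one resembling it, named above, held 11. Calca had a UMI in 52 cells and was at 644, 800.02 and 923 CPM against 816, 657 and 648 CPM. Without the 7 cells that held another lineage's panel its level in control 3 was 1392 CPM. By the same removal control 3 moved to 451 CPM for Areg and 245 CPM for Arg1. For genes described further on it moved to 77.3 CPM for Il17rb, 477 CPM for Cxcr6, 387 CPM for Ccr8 and 103 CPM for Tcf7. Cdkn1a moved there to 374 CPM, Rora to 4833 CPM, Icos to 773 CPM and Il2ra to 760 CPM. Arg1 had a UMI in 58 cells and was at 185, 378 and 199 CPM against 444, 478 and 162 CPM, with the highest values in control 1 and control 2. Csf2 had one in 30 cells and was at 349, 318 and 183 CPM against 372, 78.6 and 60.02 CPM, control 1 being the highest library. The highest cell held between 27.3% (control 2) and 89.1% (p16-DTR 3) of a library's Csf2 UMIs. Il2, an autocrine and T cell growth factor, had a UMI in 32 cells, and Ccl1, the ligand of Ccr8, in 22. Tnfsf11 (RANKL) had one in 52 cells, 68.4% against 36.7% of CD4 T cells.

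Rora, Id2, Lmo4 and Bcl11b, regulators of the lineage, were read in 69 or more cells. Rora had UMIs in all 76 and was at 4838, 4397 and 4459 CPM in the p16-DTR-labelled libraries and 4021, 4592 and 3463 CPM in the control libraries. CD4 T cells had a mean of 1043 CPM of Rora and NK cells 245 CPM. Id2, an inhibitor of E proteins that all innate lymphoid cells need, was detected in 73 cells, Lmo4 in 73 and Bcl11b in 69. Id2 was at 861 ± 349 CPM (SD, n = 6) against a higher 1249 CPM in NK cells and 413 CPM in CD4 T cells. Bcl11b was at 321 ± 70.4 CPM against a higher 371 CPM in CD4 T cells and 17.6 CPM in NK cells. Lmo4 was at 854 ± 205 CPM (SD, n = 6) against 95.3 CPM in CD4 T cells and 159 CPM in basophils. The precursor-associated factors were less frequent, Zbtb16 (PLZF) in 33 cells and Tcf7 in 14, Tcf7 at 27.2 ± 20.95 CPM against 374 CPM in CD4 T cells. After thinning Zbtb16 was read in 20% of gated cells, 12.1% of NK cells and 5.73% of B cells, and it was at 691 CPM in all other barcodes against 124 CPM in gated cells. Nfkb1, which encodes the p105/p50 subunit of NF-kappaB downstream of ST2, had 7979 ± 2219.6 CPM, from 5540.1 to 12099.5 CPM. Its comparator means were 857 CPM in CD4 T cells, 628 CPM in NK cells, 1269 CPM in basophils and 475 CPM in B cells, all under its lowest gated library.

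Among receptors, the IL-2 receptor alpha chain Il2ra had UMIs in 74 cells and the IL-25 receptor Il17rb in 50. Il2ra was at 840.05, 683 and 581 CPM in the p16-DTR-labelled libraries and 900.3, 793 and 540.2 CPM in the control libraries. Il17rb was at 218, 139 and 243 CPM against 48.01, 214 and 144 CPM, control 1 being the lowest. After each cell was thinned to 3000 UMIs, Il17rb was read in 37.3% of 75 gated cells, 0.845% of CD4 T cells and 0.103% of B cells. Crlf2, the other chain of the receptor for thymic stromal lymphopoietin, was read in 9.33% of thinned gated cells, 15.5% of B cells and 33.3% of basophils. The costimulator Icos was at 404, 542 and 489 CPM against 96.03, 207 and 582 CPM, and Il18r1, the IL-18 receptor, had a UMI in 20 cells and 53.8 ± 30.4 CPM, below the 425 CPM of CD4 T cells. Of the 17 receptors for neural and lipid mediators on the list, 12 had a UMI in gated cells. The CGRP coreceptor Ramp1 was detected in 59 cells and Vipr2 in 54. After thinning Ramp1 was read in 42.7% of gated cells, 13.5% of CD4 T cells and 1.18% of B cells, and Vipr2 in 40%, 1.89% and 1.01%. The cysteinyl leukotriene receptor Cysltr1 was at 152 ± 25.4 CPM against 31.3 CPM in CD4 T cells. Nmur1, the neuromedin U receptor, had a UMI in 11 cells. Ptgdr2 (CRTH2), a receptor of prostaglandin D2 often used to sort these cells, had none, while 209 UMIs of it lay in other barcodes.

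**Figure D2:**
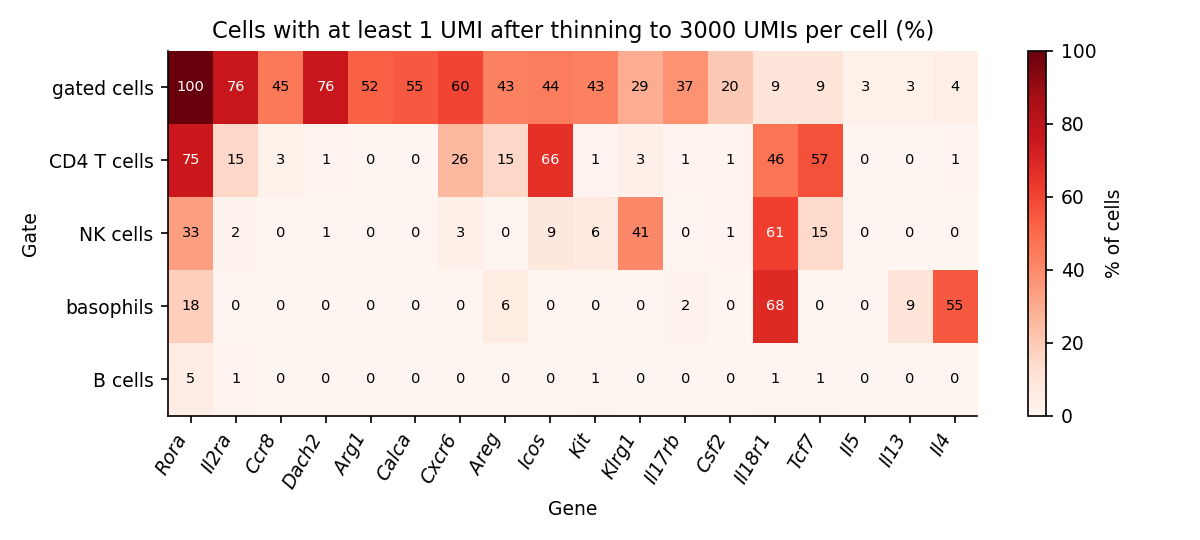
Percentage of cells with at least 1 UMI of each gene (columns) in the 5 gates (rows) after every cell was thinned to 3000 UMIs. Gated cells stand at 54.7% for Calca and 52% for Arg1, where the other 4 gates stay under 1%, and at 2.67% for Il13, where basophils stand at 9.03%.

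Among surface and residency genes, the chemokine receptor Cxcr6 had UMIs in 65 cells and was at 513, 372 and 398 CPM in the p16-DTR-labelled libraries and 456, 528 and 282 CPM in the control libraries. Ccr8 had them in 64 cells and was at 136, 343 and 199 CPM against 324, 236 and 198 CPM. Ly6a (Sca-1) was detected in 68 cells and Thy1 in 60. Klrg1, an inhibitory receptor of mature cells, was detected in 56, at 98.2, 192 and 163 CPM against 132, 243 and 96.04 CPM, and Kit, which precursors and mast cells carry, in 56. Klrg1 and Kit occurred together in 42 cells, Klrg1 alone in 14, Kit alone in 14 and neither in 6. Of the mast cell and basophil markers, Gata2 and Cpa3 had a UMI in 1 cell each, and Fcer1a, a chain of the IgE receptor, in 18.4% of cells (9.33% after thinning). The checkpoint receptor Pdcd1 (PD-1) was detected in 36 cells, and Cd200r1 in 78.9% against 25.1% of CD4 T cells and 71.4% of basophils. Mki67, a proliferation gene, had a UMI in 3 cells. Of the immediate early and stress genes, Fosb was at 404, 1912 and 1293 CPM against 1801, 1521 and 744 CPM, and at 812 CPM in basophils. Junb was at 4197 ± 551 CPM (SD, n = 6), whereas Hspa1a and Hspa1b, heat shock genes, had 2 and 3 UMIs in the 76 cells.

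The gated cells varied strongly among themselves for a few products. Calca ranged from 0 to 81 UMIs per cell with a median of 2.5, Areg from 0 to 142 with a median of 2, and Csf2 from 0 to 58 with a median of 0. Ctnna2, an adhesion-linked catenin, had all of its 478 UMIs in 17 cells. Calca and Areg were both present in 39 cells, Calca alone in 13, Areg alone in 16 and neither in 8. None of the 4 Il13-positive cells held Il5. Rora was read in every cell, from 11 to 238 UMIs with a median of 58.

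The first comparison between the labelled groups asked whether the cells made up another share of immune cells. They were 0.220%, 0.315% and 0.252% of Ptprc-positive barcodes in the p16-DTR-labelled libraries and 0.198%, 0.242% and 0.145% in the control libraries. The counting intervals were wide, for example 0.202% to 0.491% (95%, Wilson) for 19 cells of 6037 in p16-DTR 2 and 0.0737% to 0.287% for 8 cells of 5499 in control 3. The means were 0.262% ± 0.0481 and 0.195% ± 0.0482 (SD, n = 3 each). The groups overlapped, and the difference of 0.0673 percentage points did not pass the exact permutation test (two-sided, p = 0.2). The overlap lay between control 2, with 10 cells, and p16-DTR 1, with 12 cells. Both counts include barcodes that resembled each other, as named above. Shares with each such set counted once were not tested. With other denominators the groups did not overlap. Of all filtered barcodes the cells were 0.0838%, 0.129% and 0.114% against 0.0609%, 0.0789% and 0.0516%, and of the 5 gates together 1.08%, 1.36% and 1.03% against 0.755%, 0.828% and 0.504%. Each of these had a p of 0.1 (same exact test), the smallest that 3 against 3 libraries allow. The Ptprc-positive share of filtered barcodes was itself higher without overlap in the p16-DTR-labelled libraries (38.1% to 45.04% against 30.7% to 35.5%), and its part in the first of these was not tested. Without the Cd3g criterion the shares of Ptprc-positive barcodes were 0.238%, 0.447% and 0.326% against 0.258%, 0.266% and 0.182%, a difference of 0.102 percentage points (p = 0.3, same exact test). Lower-depth cells could miss a required UMI, and the median depth of gated cells was lowest in control 1. The part of depth in the shares was not tested.

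**Figure D3:**
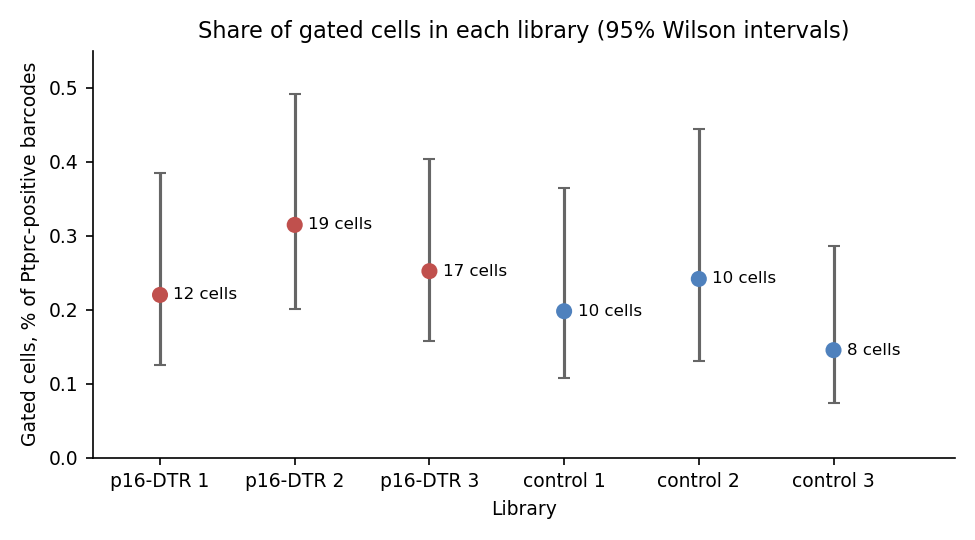
Gated cells as a percentage of Ptprc-positive barcodes in each library (points, with the number of cells), with 95% Wilson intervals for counting error as bars. The 3 libraries labelled p16-DTR lie at 0.220% to 0.315% and the 3 control libraries at 0.145% to 0.242%. With each barcode counted as a cell, the groups overlap with this denominator.

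The second comparison asked which genes differed in the cells between the labelled groups. UMIs were summed over the gated cells of each library and tested with edgeR's quasi-likelihood test, with Benjamini-Hochberg adjustment over the 3106 genes that passed the filter on low counts. None was called at an adjusted p of 0.05 (0% of those tested), 113 had an unadjusted p under 0.05, 56 of them higher in the p16-DTR-labelled libraries, and the smallest adjusted p was 0.648. DESeq2 called none. The libraries of the groups did not overlap for 158 genes that were higher (5.09%) and 124 that were lower (3.99%) in the p16-DTR-labelled libraries, 9.08% together. Of these 282 genes 34 reached the low-count filter's level of 57.2 CPM in 1 group only. Gene lists of the pathway held 303 entries, of which 271 had a UMI in gated cells and 119 passed the filter, so most members could not be tested at this depth. Of the 119 none was called, 4 did not overlap and were higher and 3 did not overlap and were lower, with Calcrl counted in 2 lists. The median log2 fold change over all tested genes was -0.02.

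By role, the medians of 7 lists lay between -0.26 and 0.03, beside -0.02 for all tested genes. The 17 tested identity regulators had a median log2 fold change of -0.12 and 7 of them were on the higher side. The 15 alarmin and survival receptors had -0.07 with 6 higher, the 9 neural and lipid mediator receptors -0.21 with 3 higher, and the 10 effector products -0.26 with 4 higher. The 12 restraint and checkpoint genes had 0.03 with 6 higher, the 17 migration and residency genes -0.17 with 4 higher, and the 8 genes of lipid and amino acid metabolism -0.20 with 3 higher. Of the 14 tested immediate early and stress genes 7 were on the higher side, with a median of 0.01. None of the lists had a called gene. Bcl11b, a T and innate lymphoid regulator, was at 218, 293 and 282 CPM in the p16-DTR-labelled libraries and 348, 371 and 414 CPM in the control libraries, without overlap (log2 fold change -0.54, SE 0.25, edgeR adjusted p 0.988). Without the 7 cells that carried another lineage's RNA control 3 fell to 168 CPM, and the groups overlapped. One of those 7, a control 3 cell of 19076 UMIs left out for 2 UMIs of the epithelial panel, held 51 Bcl11b UMIs. No other cell of control 3 held more than 7, so its level of 414 CPM rested largely on a single cell. Ptger4, a prostaglandin E2 receptor, and Ccr2, a chemokine receptor, were the other list members lower without overlap, at 70.9, 75.6 and 55.7 CPM against 132, 92.8 and 90.03 CPM and at 300.02, 277 and 219 CPM against 492, 336 and 312 CPM. Without the same 7 cells control 3 was at 51.5 and 193 CPM, and both overlapped. Il9r, the receptor of the survival cytokine IL-9, was higher without overlap at 131, 113 and 87.5 CPM against 48.01, 85.7 and 66.02 CPM, as were Tnfaip3 (A20, an NF-kappaB inhibitor), at 2215, 2444 and 2383 CPM against 2161, 1899.6 and 1933 CPM, and Calcrl, the CGRP receptor, at 136, 139 and 127 CPM against 120.03, 107 and 96.04 CPM. Without the same 7 cells Tnfaip3 also overlapped, with control 3 at 2732 CPM, while Il9r and Calcrl did not. Calcrl is also an endothelial marker, at 1609 CPM in all other barcodes. The other 6 endothelial markers summed to 262, 142 and 143 CPM against 48.01, 136 and 150.1 CPM, which overlapped, and without the same 7 cells to 296, 139.9 and 141 CPM against 48.01, 126 and 90.2 CPM, which did not. Their part in the Calcrl values was not tested. None of the 6 passed the test.

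For the type 2 products the intervals were wide. The log2 fold change was 0.66 for Areg (SE 0.53), 0.85 for Csf2 (SE 0.59), -0.49 for Arg1 (SE 0.43) and 0.14 for Calca (SE 0.22), with edgeR adjusted p at 0.988 for each. Without library p16-DTR 1 the value of Areg was -0.10, and without the 7 doubtful cells that of Calca was -0.12. Without the Cd3g criterion Arg1 stood at 0.084 and Il2ra at 0.082. Rora stood at 0.16 (SE 0.12), Icos at 0.61 (SE 0.49), Il17rb at 0.46 (SE 0.43) and Klrg1 at -0.06 (SE 0.40). Il2ra stood at -0.10 (SE 0.26) and Ccr8 at -0.14 (SE 0.37). Single libraries moved several values, and Klrg1, Il2ra, Ccr8 and Cxcr6 changed sign when some of them were left out. Csf2 was at 2.01 without control 1 and 0.43 without control 3, and Arg1 at -0.90 without p16-DTR 2 and -0.21 without control 2. Icos was at 1.60 without control 3 and 0.24 without control 1, and Il17rb at 0.91 without control 2 and 0.13 without control 1. Rora was at 0.26 without control 2 and 0.086 without control 3, and Calca at 0.27 without p16-DTR 1 and 0.026 without p16-DTR 3. Cxcr6 was at 427 ± 75.1 against 422 ± 127 CPM (SD, n = 3 each). None of these genes separated the groups. The share of thinned cells with an Areg UMI was 46.3% ± 17.7 against 38.6% ± 29.1 (SD, n = 3 each; exact permutation test, two-sided, p = 0.7), while without thinning it was lower in the p16-DTR-labelled libraries, by 3.02 percentage points. For Il13 the thinned share differed by 4.53 percentage points (p = 0.4, same exact test) and for Il5 by -1.74 (p = 1, same exact test), both resting on 2 cells. The Il13 difference was 2.63 without p16-DTR 1 and 6.80 without p16-DTR 3. Without the Cd3g criterion the thinned share differed by -8.77 percentage points for Areg (p = 0.6, same exact test) and by 3.80 for Il5 (p = 0.4, same exact test).

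Of the 9 arrest and reporter genes on the list 4 passed the low-count filter, and none was called, beside 0 of all 3106 tested genes. Cdkn2a did not pass the filter and was not tested in gated cells. Cdkn2a had 5 UMIs in 3 gated cells of the p16-DTR-labelled libraries (0, 6.30 and 11.9 CPM) and none in the 28 control cells. Without the 7 doubtful cells p16-DTR 3 was at 4.27 CPM. No fold is given, since each library lay at or under 3 UMIs. In CD4 T cells Cdkn2a was at 14.99, 15.9 and 13.7 CPM against 2.21, 7.70 and 2.82 CPM, and in NK cells at 6.98, 14.5 and 9.97 CPM against 0 in each control library. Neither difference was called (edgeR adjusted p 0.0794 in CD4 T cells and 0.135 in NK cells). A Cdkn2a UMI was read in 3.95% of gated cells and 8.40% of B cells. Cdkn1a, the p21 inhibitor, was at 120.01, 164 and 207 CPM in the p16-DTR-labelled libraries and 156, 107 and 210.1 CPM in the control libraries, log2 fold change 0.02 (SE 0.35). The tdTomato entry had no UMI in the 76 cells.

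**Figure D4:**
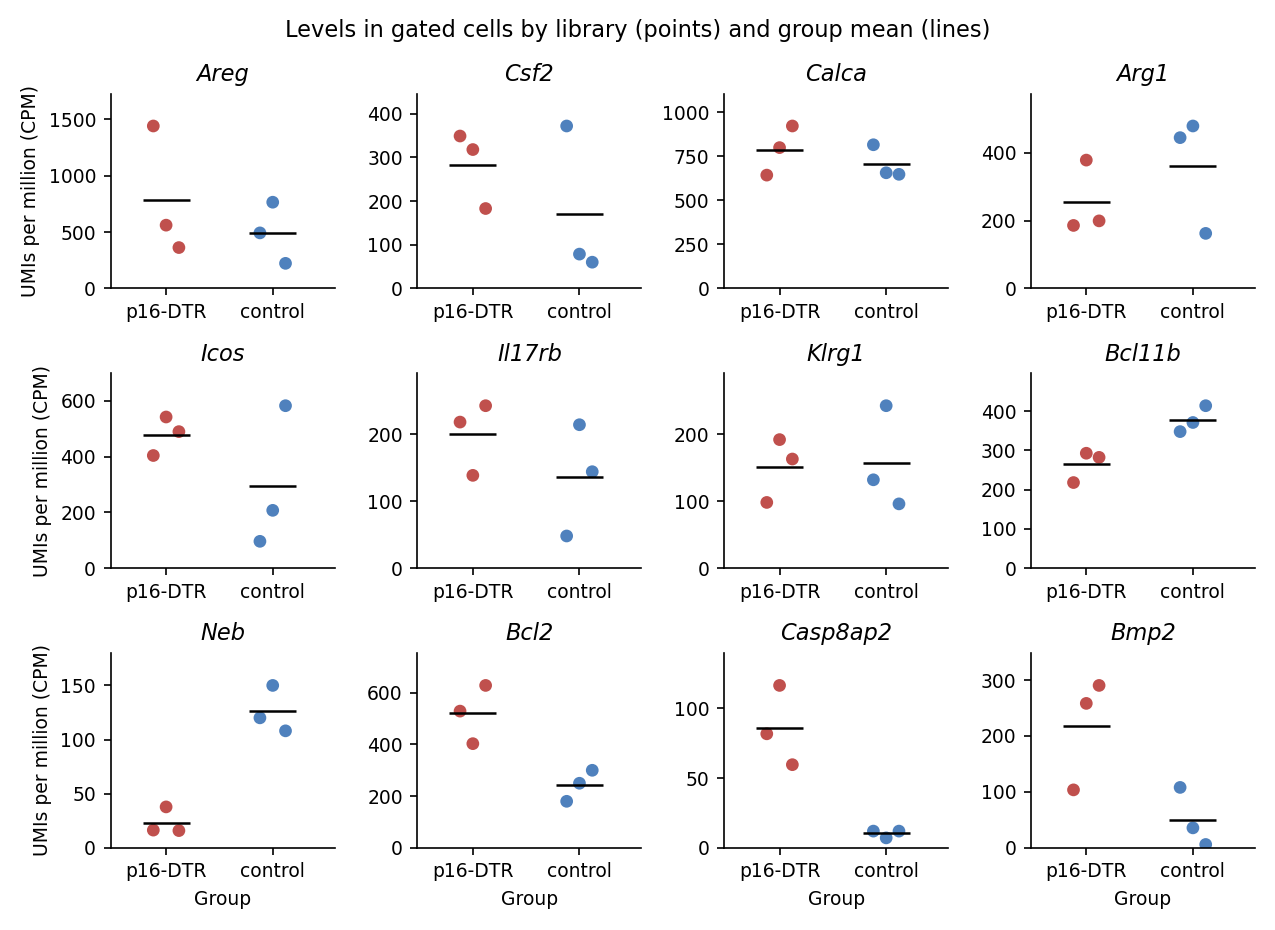
Levels of 12 genes in gated cells, in UMIs per 1000000 on axes from 0, for each library (points) with the group mean (line). Neb and Casp8ap2, chosen for the smallest p-values and tested only through the group in which they were high, lie apart between the labelled groups, while Areg, Calca, Arg1 and Icos overlap.

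The 12 genes with the smallest p-values, none of them called, were led by Neb and Casp8ap2. For 5 of the 12, Neb, Casp8ap2, Aatf, Nxn and Bbip1, the low-count filter's level of 57.2 CPM was reached in 1 group only, so that they were tested only through the group in which they were high. Neb, the giant actin-binding protein nebulin of muscle, was at 16.4, 37.8 and 15.9 CPM in the p16-DTR-labelled libraries and 120.03, 149.97 and 108 CPM in the control libraries. All 3 former libraries were lower than all 3 latter ones (log2 fold change -2.35, SE 0.43, edgeR adjusted p 0.648). Without the 7 doubtful cells Neb was at 232 CPM in control 3, with a log2 fold change of -2.55. Casp8ap2, a caspase-8 binding protein, was at 81.8, 117 and 59.7 CPM against 12.004, 7.14 and 12.004 CPM, higher in all 3, but the control value rested on 4 UMIs (log2 fold change 2.98, SE 0.58, edgeR adjusted p 0.648). With each of the 6 libraries left out in turn it could be fitted in 4 cases, at 2.77 to 3.19 in log2. Without the 7 doubtful cells Casp8ap2 was at 25.8 CPM in control 3. Bcl2, the survival factor, was higher without overlap at 529, 403 and 629 CPM against 180.1, 249.9 and 300.1 CPM (log2 fold change 1.04, SE 0.29, edgeR adjusted p 0.988), and at 0.89 to 1.25 in log2 when each library was left out in turn. Bmp2, a growth factor of the TGF-beta family, was at 104, 258 and 290.4 CPM against 108, 35.7 and 6.002 CPM, where p16-DTR 1 and control 1 overlapped. Prkch, a protein kinase C of lymphocytes, was lower at 169, 214 and 227 CPM against 312, 536 and 450.2 CPM. Of the other 7, Srpk2, AC149090.1 and Cfdp1 were on the higher side, with log2 fold changes of 1.52, 1.42 and 1.07. Aatf, Nxn, Bbip1 and Epb41l2 were on the lower side, with -1.56, -1.95, -1.48 and -0.997. All 7 separated the libraries without overlap, beside 9.08% of all tested genes. They were picked by small p-values of the same contrast, so this separation adds no support. In Nxn it ended without the 7 doubtful cells, where control 3 was at 12.9 CPM. Without those cells Casp8ap2, Aatf, Nxn and Bbip1 no longer passed the low-count filter. The sum of the type 1 and type 3 lymphocyte genes, 10 of 17 detected, was without overlap at 473 to 737 CPM against 204 to 464 CPM, and mostly Ltb: the other 16 genes summed to 10.9, 69.3 and 31.8 CPM against 0, 14.3 and 96.04 CPM, with overlap.

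**Figure D5:**
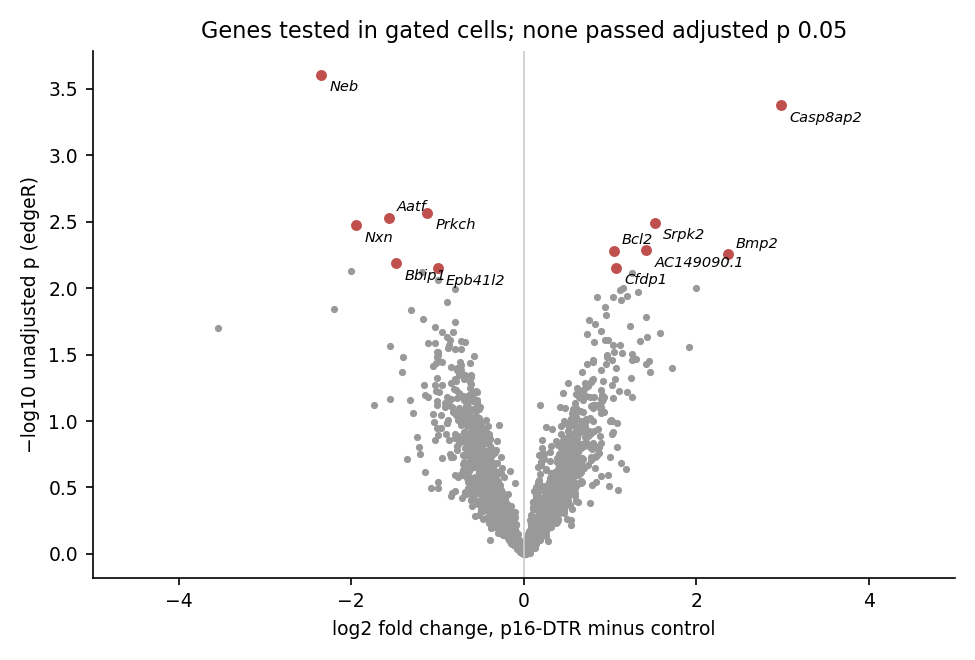
log2 fold change (libraries labelled p16-DTR minus control) against −log10 of the unadjusted edgeR p for the 3106 genes tested in gated cells. Red points are the 12 genes with the smallest p, led by Neb at -2.35 and Casp8ap2 at 2.98, and none passed the adjusted threshold.

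The third comparison asked whether the group difference in gated cells departed from that in other lymphocytes of the same libraries, by an interaction term in edgeR with the library as a block. Against CD4 T cells it passed for 2 of 11447 genes (0.0175%), Furin and Pxdc1. The low-count filter here took both cell types together. In gated cells alone 3106 genes passed it, Furin and Pxdc1 among them. Most genes of this test thus had too few counts in gated cells to be tested there alone. Furin, a protease that activates TGF-beta and other precursors, was at 1309, 901 and 779.7 CPM in gated cells of the p16-DTR-labelled libraries and 1140.3, 478 and 600.2 CPM in those of the control libraries, with overlap. In CD4 T cells it was at 138, 79.2 and 105 CPM against 339, 361 and 312 CPM, lower in all 3 (log2 fold change -1.66, edgeR adjusted p 0.0136). The interaction was 2.25 in log2 (SE 0.33, edgeR adjusted p 0.0336). Pxdc1 was at 136, 135 and 71.6 CPM against 36.01, 71.4 and 204 CPM in gated cells and at 14.5, 10.8 and 6.07 CPM against 55.9, 117 and 85.5 CPM in CD4 T cells (interaction 3.33, SE 0.53, edgeR adjusted p 0.0463). For Pxdc1 the difference in CD4 T cells was -3.09 in log2 (edgeR adjusted p 0.0148) and that in gated cells -0.01, with an SE of 0.50. The gated value ran from -0.31 to 1.00 with single libraries left out and was 0.36 without the 7 doubtful cells, and that of Furin, 0.42, ran from 0.18 to 0.86. The median interaction over all genes was 0.11. Without library p16-DTR 2 both lost the call (edgeR adjusted p 0.154 in each), as they did with size factors other than TMM, and Pxdc1 lost it without control 1 (edgeR adjusted p 0.114), with Gata3 at 1 UMI or more, at no more than 5% mitochondrial UMIs and without the Cd3g criterion. The number of genes called was 90 without p16-DTR 1, 0 without p16-DTR 2, 2 without p16-DTR 3, 1 without control 1, 10 without control 2 and 19 without control 3. It was 56 without the 7 doubtful cells and 54 with a further exclusion of Cd3d, Trac, Cd4 and Foxp3. In the CD4 T cell gate alone 269 of 12725 genes (2.11%) passed between the groups. Against NK cells none of 8401 genes passed the interaction test (0%; 428 at an unadjusted p under 0.05, smallest adjusted p 0.294; DESeq2 called 1). Most of the 8401 were likewise not among the 3106 that passed the filter in gated cells alone. The number of genes called against NK cells was 8 without p16-DTR 1 and 1 without control 2, and in the NK gate alone 1 of 10240 (0.00977%) passed between the groups.

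Ligands of the receptors above were read in all other barcodes of each library, as the surroundings the cells were taken from. Il33 was at 17.5, 22.8 and 16.4 CPM in the p16-DTR-labelled libraries and at 32.0, 24.5 and 27.6 CPM in the control libraries, without overlap (means 18.9 ± 3.44 and 28.1 ± 3.77, SD, n = 3 each). Tslp, thymic stromal lymphopoietin, was at 7.77, 8.74 and 7.54 CPM against 18.1, 9.85 and 10.6 CPM, also without overlap. Each had the smallest p that 3 against 3 libraries allow, 0.1 (exact permutation test, two-sided), and an adjusted value of 0.35 over the 7 ligands. Il7, the survival factor, was at 6.78, 6.00 and 5.30 CPM against 8.26, 7.12 and 5.92 CPM and overlapped. Il25 had at most 4 UMIs in a library. In whole libraries, fewer cells of a ligand-making type and less RNA per cell cannot be told apart, and the share of CD45-negative cells also varied, with 38.1%, 41.0% and 45.04% of filtered barcodes Ptprc-positive in the p16-DTR-labelled libraries and 30.7%, 32.7% and 35.5% in the control libraries. That share was likewise without overlap, and its part in the ligand levels was not tested.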

How the data were processed

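Counts were the authors' deposited UMI counts per gene and barcode from 10x Genomics GEM-X 3' libraries, made with Cell Ranger 8.0.1 on build mm10 per the submitters' processing notes; how barcodes were called and whether introns were counted is not given in the sources used here. Coordinates are from GENCODE M21, which matched 31011 of 31054 features. Each matrix was read whole and the gate applied to raw counts, with no doublet caller: cells with at least 2 UMIs of a B cell, myeloid, endothelial, epithelial or stromal panel were left out as an alternative. The comparator gates required Ptprc with Cd3e and Cd4 (no Cd8a, Cd79a, Cdh5), Ncr1 and Klrb1c (no Cd3e, Cd3g, Cd79a, Cdh5), Ms4a2 and Cd200r3 (no Cd3e, Cd79a, Cdh5) or Cd79a and Ms4a1 (no Cd3e, Ms4a2, Cdh5). CPM are UMIs per 1000000 of the summed cells.

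Sums per library were tested with edgeR 4.0.16 (R 4.3.3; filterByExpr, TMM, quasi-likelihood test, Benjamini-Hochberg), with DESeq2 1.42.0 and limma 3.58.1 as alternatives; the edgeR steps were tested on simulated data. Shares were compared by exact permutation over libraries (scipy 1.17.1) after thinning cells to 3000 UMIs with a fixed seed, which left out 1 gated cell. Intervals and floors cover counting error only. Same-numbered libraries did not deviate together (r of -0.17, 0.00432 and -0.08), so they were not paired, and chi-square per degree of freedom between replicates was 2.23 to 5.28, so no library was a copy of another. Named genes were the list members without overlap, 18 genes always given, the 12 smallest p-values where under 10 genes were called, and the 25 highest ratios to the comparators. The gate, gene lists and rules were chosen with earlier results of these data known.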

Additional observations from a re-analysis of the deposited data

Results flagged for a closer look

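Furin and Pxdc1 were singled out because the group difference in gated cells differed from that in CD4 T cells of the same libraries by the interaction test. Furin had an interaction of 2.25 in log2 (SE 0.33, edgeR adjusted p 0.0336), with a difference of 0.42 in gated cells and -1.66 in CD4 T cells. Pxdc1 had 3.33 (SE 0.53, edgeR adjusted p 0.0463), with -0.01 in gated cells and -3.09 in CD4 T cells. When each library was left out in turn, the values ran from 1.96 to 2.61 for Furin, called in 5 of 6 fits, and from 2.86 to 4.23 for Pxdc1, called in 4 of 6. Both lost the call with RLE size factors or library size alone, and Pxdc1 also with Gata3 at 1 UMI or more, at 5% mitochondrial UMIs and without the Cd3g criterion.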

How the results depend on the processing

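The gate held few cells, and the 28 control cells gave 83309 to 166605 UMIs per library. No gene was called in gated cells under any gate, scaling, tool or left-out library, except that with no filter on low counts 77 were (13 higher, 64 lower), Neb, Casp8ap2, AC149090.1 and Bmp2 among them; the cause was not tested. The interaction with CD4 T cells gave 1 gene with Gata3 at 1 UMI or more, 1 at 5% mitochondrial UMIs, 1 without the Cd3g criterion (chosen after seeing the data), 54 with a further T cell exclusion, 56 without possible doublets, 0 with RLE size factors or library size alone, 109 with no filter, 6 by DESeq2 and 0 to 90 with single libraries left out. The interaction with NK cells gave 1 gene with the T cell exclusion, 74 with no filter, 1 by DESeq2 and 0 to 8 with single libraries left out. The difference in the share of cells with an Il5 UMI turned to 3.80 percentage points without the Cd3g criterion and ran from -3.70 to 1.96 with single libraries left out (1.96 without control 1). That for Areg was -8.77 without the Cd3g criterion, -3.02 unthinned, -0.406 at 2000 UMIs, and -5.40 to 23.4 with single libraries left out (-2.54 without p16-DTR 1, -5.40 without control 3). The share among Ptprc-positive barcodes ran from 0.0411 to 0.0906 points with single libraries left out. Single genes close to no difference changed sign: Klrg1 to 0.014 with no filter, Arg1 to 0.084 and Il2ra to 0.082 without the Cd3g criterion, Calca to -0.12 without doublets and Ccr8 to 0.10 with the T cell exclusion. Cxcr6 went to -0.001146 (Gata3 at 1), -0.041 (T cell exclusion), -0.12 (no doublets), -0.022 (5% mitochondrial), -0.001878 (RLE), -0.001445 (DESeq2), -0.081 (limma voom) and -0.21 (libraries with 10 or more cells). Cdkn1a went to -0.001637 (Gata3 at 1), -0.071 (T cell exclusion), -0.27 (no doublets) and -0.011 (5% mitochondrial). With single libraries left out, log2 fold changes ran from -0.10 to 1.14 for Areg, -0.33 to 0.43 for Klrg1, -0.27 to 0.055 for Il2ra, -0.21 to 0.20 for Cxcr6, -0.58 to 0.11 for Ccr8 and -0.20 to 0.36 for Cdkn1a. With the replicate number as a block 0 genes were called in gated cells (82 at an unadjusted p under 0.05). Of 451 alternative values of single genes 409 kept direction and side of the threshold.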

Other observations

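Among genes with at least 50 CPM in every library of gated cells, the 2 with the highest ratio to the comparator gates are neighbours. Stab2 lies on chromosome 10 at 86841198 to 87008025 (mm10, minus strand) and 1700113H08Rik at 87058045 to 87230589 (plus strand), with 50019 bases between them. Both had UMIs in 25 of the 76 gated cells, Stab2 alone in 4, 1700113H08Rik alone in 9 and neither in 38. Gated cells held 18.7% of all 1700113H08Rik UMIs of the filtered barcodes and 2.44% of those of Stab2.

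Some transcripts of the 76 cells belong to none of the gene groups above. Tph1, the enzyme that starts serotonin synthesis outside the brain, had 30 UMIs in gated cells, 19.5% of its UMIs in the filtered barcodes. Bves, a gene better known from muscle, had 32 UMIs, 15.2% of its total. Pcsk1, a prohormone convertase of endocrine cells, had 53 UMIs, 3.65% of its total, and Olfr1259, annotated as an olfactory receptor, had 91, 6.46% of its total. The potassium channel gene Kcnq5 had a UMI in 76 of 76 gated cells and, after thinning to 3000 UMIs, in 100% of them, against 24.2% of CD4 T cells, 56.7% of NK cells, 67.0% of basophils and 56.2% of B cells.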
